A study of Homo sapiens with 12 samples.

Results

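The 10 classical zinc-dependent histone deacetylases of classes I and II were followed in 3 human multiple myeloma cell lines treated with the BET bromodomain inhibitor JQ1. The members are HDAC1, HDAC2, HDAC3 and HDAC8 (class I), HDAC4, HDAC5, HDAC7 and HDAC9 (class IIa), and HDAC6 and HDAC10 (class IIb). They are defined by name, and all 10 were found among the 60666 gene IDs of the deposited count table and among the 23493 genes with enough reads to be tested. Total RNA was sequenced after ribosomal RNA removal from KMS-11, KMS-12 and RPMI8226, all labelled as wild type, after 72 h with 1 µM JQ1 dissolved in DMSO or after an equal volume of DMSO. Each line gave 2 DMSO and 2 JQ1 libraries, 12 in all, with 15424512 to 27366499 counts per library. The labels do not say which KMS-12 derivative was used, the design text calls the first line by another number (KMS-111), and nothing states whether replicates were separate cultures. The p-values below therefore rest on the spread of these libraries alone, and that spread may be technical. Levels are CPM, the reads of a gene relative to all reads of its library, scaled between libraries by trimmed means of M values (TMM), a change is JQ1 minus DMSO on the log2 scale, and a gene rose or fell where its p from edgeR's quasi-likelihood test, adjusted by Benjamini-Hochberg over all genes tested, was under 0.05.

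Histone deacetylases remove acetyl groups from lysines of histones and other proteins. Class I enzymes are mostly nuclear and work as catalytic subunits of corepressor complexes: HDAC1 and HDAC2 in SIN3, NuRD and CoREST, HDAC3 in the NCoR complex. Class IIa enzymes have little deacetylase activity of their own, bind MEF2 transcription factors and leave the nucleus on 14-3-3 proteins once kinases phosphorylate them, while HDAC6 is a cytoplasmic tubulin deacetylase that carries ubiquitinated protein to the aggresome and HDAC10 is a polyamine deacetylase. In myeloma, class I and class IIb enzymes are known as drug targets, and BET proteins, the targets of JQ1, are readers of the acetyl marks that these enzymes erase.

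Marker sums in this paragraph are CPM by library size alone, without TMM, unlike the levels below. The TMM factors were 1.23 in both KMS-12 DMSO libraries and 0.724 and 0.718 in the JQ1 ones. Without them, the KMS-12 sums with JQ1 stand lower against DMSO than TMM-scaled sums would. All 9 plasma cell markers had reads in each group, and their sum lay between 2875 and 8301 CPM. In KMS-11 it was 8189 to 8301 with DMSO and 2875 to 4041 with JQ1, and in RPMI8226 5453 to 6499 and 3598 to 3634. Markers of T and NK cells summed to at most 17.1 CPM, of myeloid cells to 32.7, of stroma and endothelium to 7.88 and of erythroid cells to 0.131, with CD3D at 0 in KMS-11 and KMS-12, NKG7 at 0 in all 6 groups, and COL3A1 and HBB at 0 in 5 and 6 groups, respectively. The T and NK sum was lower with JQ1 in each line, at 16.4 to 17.1 CPM with DMSO and 0.907 to 1.24 with JQ1 in KMS-12, 11.7 to 11.9 and 4.73 to 5.38 in RPMI8226, and 3.22 to 3.94 and 0.597 to 1.35 in KMS-11. So was the stromal and endothelial sum, at 7.55 to 7.88 and 0.844 to 0.995 CPM in KMS-11, 1.48 to 2.45 and 0.0756 to 0.585 in KMS-12, and 5.48 to 7.45 and 0.389 to 0.603 in RPMI8226. The myeloid sum was lower in RPMI8226, at 28.9 to 32.7 and 4.27 to 7.07 CPM, and higher in KMS-11, at 1.68 to 2.21 and 3.13 to 3.63, and in KMS-12, at 0.832 to 0.985 and 1.13 to 1.25. The part of these genes in the results below was not tested. A second feature moved with JQ1 too: reads of the nuclear RNA MALAT1 made up 3.61% to 3.98% of the KMS-11 DMSO libraries and 14.5% to 16.5% of the JQ1 ones, 8.06% to 9.01% and 25.7% to 25.8% in KMS-12, and 4.11% to 4.58% and 6.31% to 6.57% in RPMI8226. With library size alone in place of TMM, the median change of all genes shifted by -0.33 in the average of the lines (KMS-11 -0.25, KMS-12 -0.76, RPMI8226 -0.03). Changes are therefore relative to that scaling, and shares or ratios of reads within a library, which need no scaling, are given beside them.

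By GENCODE 29 on GRCh38, the class I genes are HDAC1 (ENSG00000116478, chr1:32292086-32333635, plus strand), HDAC2 (ENSG00000196591, chr6:113933028-114011308, minus strand), HDAC3 (ENSG00000171720, chr5:141620876-141636870, minus strand) and HDAC8 (ENSG00000147099, chrX:72329516-72573199, minus strand). The class IIa genes are HDAC4 (ENSG00000068024, chr2:239048168-239401654, minus strand), HDAC5 (ENSG00000108840, chr17:44076746-44123702, minus strand), HDAC7 (ENSG00000061273, chr12:47782722-47833132, minus strand) and HDAC9 (ENSG00000048052, chr7:18086949-19002416, plus strand). The class IIb genes are HDAC6 (ENSG00000094631, chrX:48801377-48824982, plus strand) and HDAC10 (ENSG00000100429, chr22:50245183-50251405, minus strand). All 10 are protein-coding, and reads were counted per gene.

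HDAC9 and HDAC3 are shown by sequence first, because they were the members that changed in the same direction in all 3 lines, HDAC9 downward and HDAC3 upward. The stretches below are RefSeq promoter windows (GRCh38.p14) of 250 bases before and 20 bases after the most upstream annotated start, 5′ to 3′ on the gene's strand. Capitals mark the GC box (GGGCGG, or CCGCCC on the other strand) and, in HDAC9, the MEF2 box (CTA, any 4 bases, then TAG).
HDAC3 promoter, chr5:141636830-141637099, minus strand: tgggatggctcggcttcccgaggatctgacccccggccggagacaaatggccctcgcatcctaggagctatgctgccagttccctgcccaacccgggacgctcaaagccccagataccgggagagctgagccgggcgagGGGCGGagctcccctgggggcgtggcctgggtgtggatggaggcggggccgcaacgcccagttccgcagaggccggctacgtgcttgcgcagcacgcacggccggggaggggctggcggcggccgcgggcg
HDAC9 promoter, chr7:18086575-18086844, plus strand: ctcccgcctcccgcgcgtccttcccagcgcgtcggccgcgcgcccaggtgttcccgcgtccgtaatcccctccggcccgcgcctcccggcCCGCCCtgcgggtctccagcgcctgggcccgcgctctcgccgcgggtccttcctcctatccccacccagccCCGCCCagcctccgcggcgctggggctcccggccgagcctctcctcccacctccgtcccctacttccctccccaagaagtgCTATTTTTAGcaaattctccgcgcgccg
The HDAC9 window belongs to 1 of 5 annotated starts, and its MEF2 box begins 8 bases before that start. Such a box stood in 2.65% of 27305 RefSeq promoter windows of the same length and in 1 of the 9 members that could be matched (HDAC5 had no entry). The GC box stood in 6 of 9 members and in 43.2% of all windows, and the E box CACGTG in 1 of 9 members (HDAC4) and 6.94% of all windows. CCAAT was found in 2 members (34.2% of all windows), the ETS core CCGGAAG in HDAC10 (2736 of all windows), and neither TGACGTCA (1.95%) nor TATAAA (11.5%) in any of the 9, all searched on both strands, with overlaps between motifs kept. The HDAC3 and HDAC9 windows were 72.6% and 74.4% G and C, against a median of 57.8% over all windows. These matches describe the letters alone.

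HDAC9 RNA was lower after JQ1 in all 3 lines. The RPMI8226 libraries fell from 117 and 111 CPM with DMSO to 57.2 and 59.8 CPM with JQ1. In KMS-11 the pair went from 70.4 and 80.9 to 40.0 and 42.8 CPM. KMS-12, which had little HDAC9 with DMSO, went from 15.04 and 14.4 to 3.94 and 4.31 CPM, the latter from 78 and 82 reads. No JQ1 library reached a DMSO library of its line. The log2 change was -0.87 in KMS-11 (SE 0.10, edgeR adjusted p = 3.24e-06), -1.83 in KMS-12 (SE 0.13, edgeR adjusted p = 4.21e-09), a 3.56-fold lower level, and -0.96 in RPMI8226 (SE 0.10, edgeR adjusted p = 1.73e-06). The average was -1.22 (SE 0.06, edgeR adjusted p = 5.18e-11), and all 3 lines kept the call under each of the 22 alternative settings run. HDAC9 held 15.3% of the reads of the 10 genes in RPMI8226 with DMSO and 8.30% with JQ1, 7.16% and 4.50% in KMS-11, and 2.23% and 0.473% in KMS-12. In these bulk samples, fewer cells expressing a gene and less RNA per cell cannot be told apart.

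HDAC3, the catalytic subunit of the NCoR complex, moved the other way. Its level rose from 26.5 and 30.6 to 51.6 and 51.8 CPM in KMS-11 and from 19.1 and 18.2 to 36.2 and 37.4 CPM in KMS-12. RPMI8226, the line with the most HDAC3 RNA, went from 45.5 and 42.9 to 67.7 and 61.5 CPM. Every JQ1 library lay above both DMSO libraries of its line, as for 30.1% of all genes in RPMI8226, 31.6% in KMS-12 and 30.0% in KMS-11. The changes were 0.86 (SE 0.11, edgeR adjusted p = 7.30e-06), 0.98 (SE 0.11, edgeR adjusted p = 1.34e-06) and 0.55 (SE 0.11, edgeR adjusted p = 0.000785) in KMS-11, KMS-12 and RPMI8226, and 0.80 in the average (SE 0.06, edgeR adjusted p = 9.03e-09). The KMS-12 rise was lost with library size alone, at 0.21 (edgeR adjusted p = 0.103, in a range up to that value from 1.15e-12 over the alternatives, DESeq2 and limma-voom included, as in the ranges below). As a share of the 10 genes' reads HDAC3 went from 2.70% to 5.62%, from 2.84% to 4.22% and from 5.93% to 9.15% in KMS-11, KMS-12 and RPMI8226. Among all genes tested, 6.04% rose and 6.37% fell in all 3 lines, so that 1 member in each direction is close to what the table holds in general.

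**Figure D1:**
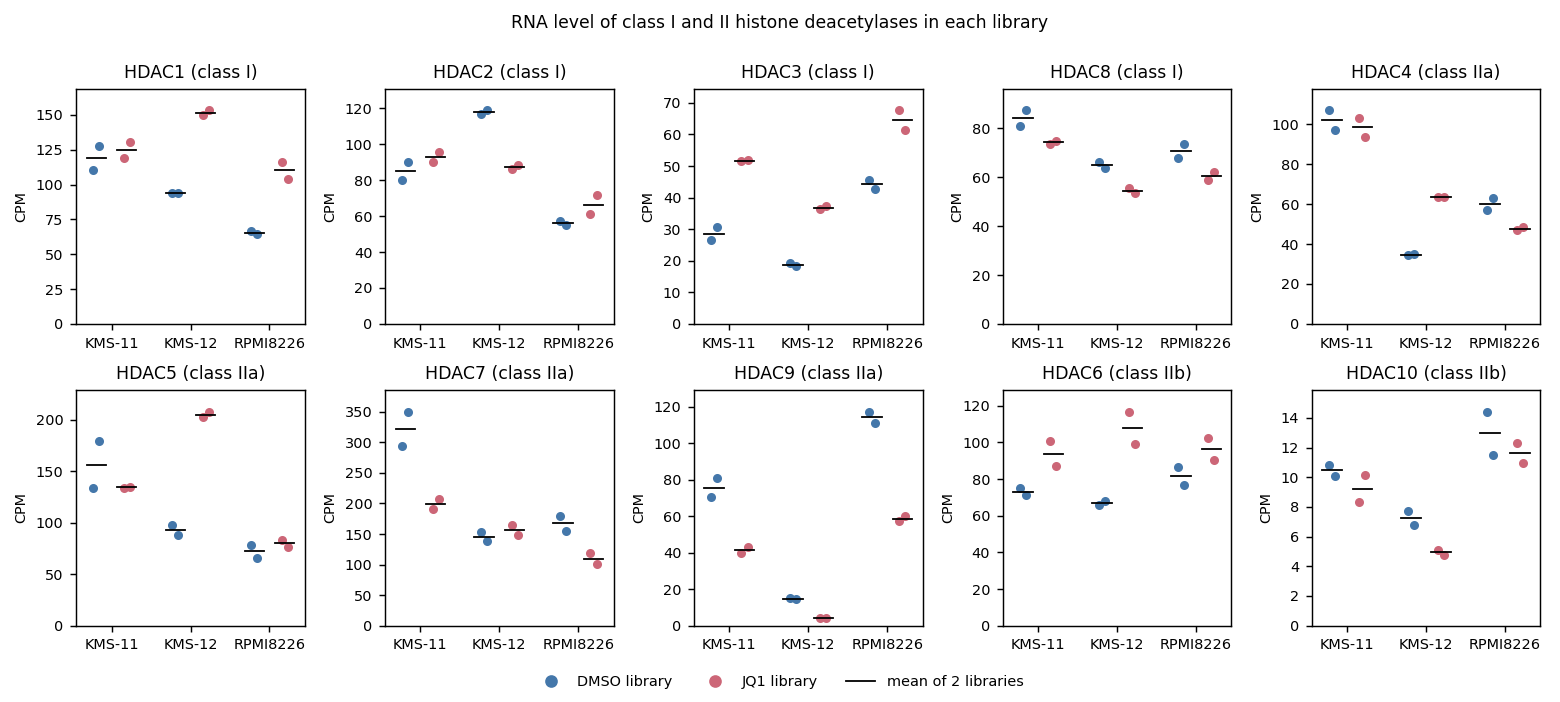
RNA level in CPM (TMM-scaled, linear axis from 0) of each of the 10 genes in each of the 12 libraries, by line, with DMSO and JQ1 libraries as coloured points and the mean of 2 libraries as a bar. HDAC9 was lower and HDAC3 higher with JQ1 in all 3 lines, while HDAC5 went up in KMS-12, from 97.7 and 88.5 to 202 and 208 CPM, with overlapping libraries in KMS-11 and RPMI8226.

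HDAC1 and HDAC2 are close paralogs that share the SIN3, NuRD and CoREST complexes, and their RNA did not move together. HDAC1 rose in KMS-12 from 94.3 and 94.3 to 149.8 and 153 CPM (0.69, SE 0.10, edgeR adjusted p = 1.57e-05) and in RPMI8226 from 66.7 and 64.4 to 116 and 104 CPM (0.75, SE 0.10, edgeR adjusted p = 1.77e-05). Its KMS-11 libraries overlapped, at 110.4 and 128 CPM with DMSO and 119 and 131 CPM with JQ1 (0.07, SE 0.10, edgeR adjusted p = 0.629). HDAC2 fell in KMS-12 from 117 and 119 to 86.4 and 88.5 CPM (-0.43, SE 0.10, edgeR adjusted p = 0.00155). Its levels were 80.1 and 90.0 against 90.2 and 95.7 CPM in KMS-11 and 57.5 and 55.3 against 61.1 and 71.8 CPM in RPMI8226. In both lines JQ1 was higher without overlap (as for 30.0% and 30.1% of all genes) and without passing the test. Within a library, HDAC1 gave 0.806 and 0.792 reads per HDAC2 read in the KMS-12 DMSO libraries and 1.73 in both JQ1 libraries. The ratio was 1.16 in both RPMI8226 DMSO libraries and 1.91 and 1.45 with JQ1, and it was 1.38 and 1.42 against 1.32 and 1.37 in KMS-11. The JQ1 libraries had the higher ratio in KMS-12 and RPMI8226 and the lower one in KMS-11. With library size alone the KMS-12 change of HDAC1 was -0.08 (edgeR adjusted p = 0.438, in a range from 6.86e-10) and that of HDAC2 was -1.20, while the ratio does not depend on scaling. A processed HDAC1 pseudogene, HDAC1P2, had 312 reads over the 12 libraries, against 28915 for HDAC1.

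HDAC8, a class I enzyme that works outside the large complexes and deacetylates cohesin, was slightly lower after JQ1. It went from 81.0 and 87.5 to 73.7 and 74.9 CPM in KMS-11, from 66.2 and 63.8 to 55.4 and 53.7 CPM in KMS-12, and from 67.9 and 73.5 to 58.9 and 62.0 CPM in RPMI8226. The groups did not overlap in any line, where 33.5% (KMS-11), 40.6% (KMS-12) and 35.7% (RPMI8226) of all genes had JQ1 libraries below both DMSO libraries. The average fell by 0.22 (SE 0.05, edgeR adjusted p = 0.00215). By line, KMS-12 passed at -0.25 (SE 0.09, edgeR adjusted p = 0.0339), and KMS-11 at -0.18 and RPMI8226 at -0.23 did not. Over the 22 alternatives, KMS-11 stayed without a call in 19 and RPMI8226 in 15. With the replicate number as a block within each line, RPMI8226 passed (edgeR adjusted p = 0.0489). RPMI8226 also passed with RLE scaling (edgeR adjusted p = 0.0383), library size alone (edgeR adjusted p = 0.0401) and DESeq2 (adjusted p = 0.0446), among others. KMS-11 passed with library size alone (-0.44), library size after MALAT1 was taken out (-0.25) and a minimum mean of 10 CPM (-0.22). The KMS-12 call was lost without any 1 of the 4 KMS-12 libraries, with values between -0.28 and -0.22, with DESeq2 (-0.24, adjusted p = 0.0538) and without the filter on low counts (-0.25, edgeR adjusted p = 0.0928). As a share of the 10 genes' reads, HDAC8 went from 9.87% to 6.25% in KMS-12 and from 7.99% to 8.07% in KMS-11. In RPMI8226 its shares overlapped, at 8.81% and 10.2% with DMSO and 8.12% and 9.03% with JQ1.

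HDAC7, the class IIa enzyme best known from lymphocytes and endothelium, gave 30.4% of the 10 genes' reads in KMS-11 with DMSO. It fell in KMS-11 from 293 and 350.2 to 192 and 208 CPM (-0.69, SE 0.11, edgeR adjusted p = 9.84e-05) and in RPMI8226 from 179.6 and 155 to 118 and 102 CPM (-0.60, SE 0.11, edgeR adjusted p = 0.000541). The KMS-12 libraries overlapped, at 153 and 139 CPM with DMSO and 164 and 149 CPM with JQ1 (0.10, SE 0.11, edgeR adjusted p = 0.508). That KMS-12 value turned to -0.67 with library size alone (edgeR adjusted p = 2.28e-05) and to -0.37 with library size after MALAT1 was taken out (edgeR adjusted p = 0.00515), in a range up to 0.965 over the alternatives. Its share of the 10 genes' reads was lower with JQ1 in each line, from 30.4% to 21.7% in KMS-11, from 22.1% to 17.9% in KMS-12 and from 22.4% to 15.6% in RPMI8226. Exons of an antisense gene, AC004466.1, cover 9.70% of the exon bases of HDAC7, and it had 717 reads against 49256 for HDAC7. AC004466.1 rose in each line, by 1.58 in the average (edgeR adjusted p = 1.70e-06), and its part in the HDAC7 values was not tested.

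HDAC5 and HDAC4, which shuttle between nucleus and cytoplasm under the same kinases as HDAC7, rose in KMS-12. HDAC5 went there from 97.7 and 88.5 to 202 and 208 CPM, a 2.20-fold higher level (1.14, SE 0.12, edgeR adjusted p = 7.18e-07). Its RPMI8226 libraries overlapped, at 78.9 and 66.2 CPM against 83.3 and 76.5 CPM (0.14, SE 0.12). In KMS-11 the DMSO libraries stood far apart, at 134 and 179 CPM, and the JQ1 libraries at 134 and 135 CPM (-0.22, SE 0.12, edgeR adjusted p = 0.170). Without KMS-11 DMSO replicate 2 that value was 0.02, and without replicate 1 it was -0.42 and passed (edgeR adjusted p = 0.00475, in a range from 0.00189 to 0.958). The average of 0.35 (SE 0.07, edgeR adjusted p = 0.000383) was near 0 with library size alone (edgeR adjusted p = 1.00). HDAC5 took 14.1% of the 10 genes' reads in KMS-12 with DMSO and 23.5% with JQ1. Its shares were 14.7% and 14.6% in KMS-11 and 9.71% and 11.3% in RPMI8226.

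HDAC4 changed in opposite directions in KMS-12 and RPMI8226. It rose from 34.3 and 35.2 to 63.7 and 63.3 CPM in KMS-12 (0.87, SE 0.10, edgeR adjusted p = 1.24e-06) and fell from 57.1 and 63.1 to 46.9 and 48.4 CPM in RPMI8226 (-0.34, SE 0.10, edgeR adjusted p = 0.0135). KMS-11 overlapped, at 107 and 97.1 CPM against 103 and 93.6 CPM (-0.05, SE 0.10). The rise in KMS-12 stood at 0.10 with library size alone (edgeR adjusted p = 0.443, in a range from 1.95e-13), although the share of HDAC4 in the 10 genes' reads was higher there, 5.28% with DMSO and 7.28% with JQ1. That share went from 9.73% to 10.7% in KMS-11 and from 8.09% to 6.75% in RPMI8226. The fall in RPMI8226 lost its call without JQ1 replicate 1, at -0.32 (edgeR adjusted p = 0.0843), and without DMSO replicate 2, at -0.26 (edgeR adjusted p = 0.148, in a range from 0.00422). The average of 0.16 (edgeR adjusted p = 0.0251) is the mean of these unlike values. With library size alone it was -0.19 and passed as a fall (edgeR adjusted p = 0.0103).

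HDAC6, the tubulin deacetylase of the aggresome pathway, rose in KMS-12 from 65.6 and 67.8 to 117 and 99.1 CPM (0.69, SE 0.11, edgeR adjusted p = 5.16e-05). In KMS-11 it went from 75.2 and 71.1 to 101 and 87.0 CPM (0.36, SE 0.11, edgeR adjusted p = 0.0149), a call lost without JQ1 replicate 1, at 0.25 (edgeR adjusted p = 0.174). RPMI8226 had 86.6 and 76.8 CPM against 102.6 and 90.2 CPM, with no call (0.24, SE 0.11, edgeR adjusted p = 0.110). Both JQ1 libraries lay higher there, as for 30.1% of all genes. The average was 0.43 (SE 0.06, edgeR adjusted p = 1.71e-05) and stood at 0.08 with library size alone (edgeR adjusted p = 0.344, in a range from 9.48e-11), where the KMS-11 and KMS-12 values were 0.10 and -0.08, both without a call. With library size after MALAT1 was taken out, HDAC6 lost both calls too, at 0.29 in KMS-11 (edgeR adjusted p = 0.0516) and 0.22 in KMS-12 (edgeR adjusted p = 0.105). Its share of the 10 genes' reads was higher with JQ1 in each line, from 6.97% to 10.2% in KMS-11, from 10.1% to 12.4% in KMS-12 and from 10.95% to 13.6% in RPMI8226.

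HDAC10, the polyamine deacetylase, had 2483 reads over the 12 libraries. It went from 10.8 and 10.1 to 8.33 and 10.2 CPM in KMS-11, from 7.73 and 6.81 to 5.10 and 4.79 CPM in KMS-12 and from 14.4 and 11.5 to 12.3 and 10.9 CPM in RPMI8226. The groups overlapped in KMS-11 and RPMI8226. In KMS-12 the JQ1 libraries lay lower without overlap, as for 40.6% of all genes. The KMS-12 change was called, at -0.56 (SE 0.20, edgeR adjusted p = 0.0277). That call was lost without any 1 of the 4 KMS-12 libraries, with values from -0.64 to -0.46. The average of -0.30 (edgeR adjusted p = 0.0313) was lost without KMS-11 DMSO replicate 1 or JQ1 replicate 1, without KMS-12 DMSO replicate 1 or either KMS-12 JQ1 library, and without RPMI8226 DMSO replicate 1 or JQ1 replicate 2, with values from -0.31 to -0.24. MAPK12, a neighbour on the same strand, shares 55.8% of the exon bases of HDAC10 and had 9358 reads. MAPK12 itself fell as well, by 0.73 in KMS-11 and 0.86 in RPMI8226, and changed by -1.79 in KMS-12 and by -1.13 in the average, and how the authors' counting split the shared bases is not given in the sources used here.

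In all, 9 of the 10 genes changed in the average of the lines, 5 upward and 4 downward (22.3% and 26.7% of all genes), HDAC2 being the exception at -0.02 (SE 0.06). The test called 49.0% of all genes in that comparison. In KMS-12 the count was also 9, 5 upward (HDAC1, HDAC3, HDAC4, HDAC5 and HDAC6) and 4 downward (HDAC2, HDAC8, HDAC9 and HDAC10), against 46.0% of all genes (20.2% upward, 25.7% downward). In RPMI8226 it was 5, with HDAC1 and HDAC3 up and HDAC4, HDAC7 and HDAC9 down, against 32.2% (13.6% and 18.6%), and in KMS-11 it was 4, with HDAC3 and HDAC6 up and HDAC7 and HDAC9 down, against 38.5% (17.3% and 21.2%). Genes with more reads are called more often. Of the 10132 genes with a mean of at least 10 CPM, fitted alone and without HDAC10, 7139 were called in the average. In KMS-12 6596 of them were called, in RPMI8226 4824 and in KMS-11 5920. The median member stood at 0.07 in the average, at 0.39 in KMS-12, at -0.12 in KMS-11 and at -0.01 in RPMI8226, where all genes tested had medians of -0.10, -0.06, 0.00 and -0.03. With library size alone 2 rose in the average, and 1 each rose in KMS-11 and KMS-12. HDAC2 then passed as a fall in the average, at -0.38 (edgeR adjusted p = 1.34e-05), as did HDAC4, at -0.19 (edgeR adjusted p = 0.0103). HDAC2 also fell with library size after MALAT1 was taken out, at -0.20 (edgeR adjusted p = 0.0045). The upward count in KMS-11 was 1 without JQ1 replicate 1, and the downward count in KMS-12 was 2 without any 1 of the 4 KMS-12 libraries. In the average, the call of HDAC4 was lost without KMS-11 JQ1 replicate 1, RPMI8226 DMSO replicate 1, KMS-12 DMSO replicate 1, RPMI8226 JQ1 replicate 2 or either KMS-12 JQ1 library, with values of 0.14 to 0.16. It was also lost with DESeq2 (0.15, adjusted p = 0.0541), without the filter on low counts (0.16, edgeR adjusted p = 0.0583) and with a minimum mean of 10 CPM (0.095, edgeR adjusted p = 0.148).

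**Figure D2:**
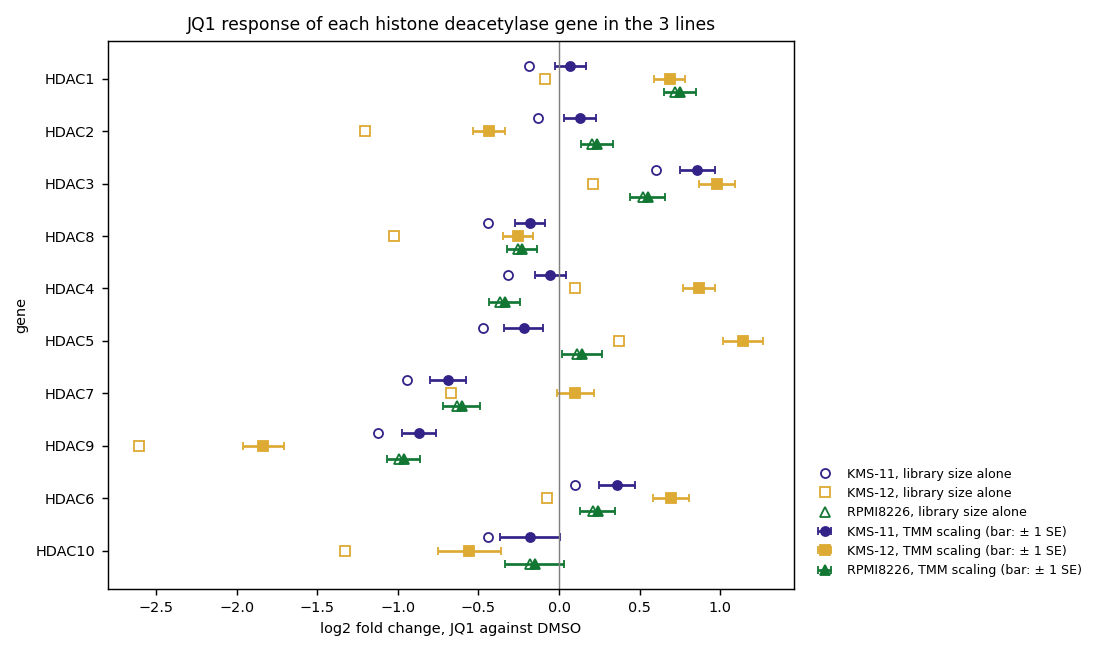
Log2 change with JQ1 of each gene in each line, as filled symbols with a bar of 1 SE for the TMM-scaled edgeR fit and as open symbols for the same fit with library size alone. HDAC9 lies left of 0 and HDAC3 right of 0 in all 3 lines under both scalings, while the open KMS-12 squares sit far to the left of the filled ones, with HDAC7 moving from 0.10 to -0.67.

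The difference between the lines' responses was itself tested. It passed for 6 of the 10 genes, against 30.1% of all genes. These were all 4 class IIa members, HDAC4 (edgeR adjusted p = 9.96e-06), HDAC5 (3.11e-05), HDAC9 (0.000455) and HDAC7 (0.00158), and 2 class I members, HDAC1 (0.00155) and HDAC2 (0.00265). HDAC3 and HDAC6 did not pass (edgeR adjusted p = 0.0944 and 0.0745), nor did HDAC8 and HDAC10 (0.941 and 0.438). With library size alone, HDAC8 and HDAC10 did pass (edgeR adjusted p = 0.00026 and 0.00535). They also passed with library size after MALAT1 was taken out (edgeR adjusted p = 0.00679 and 0.0291). HDAC6 passed with RLE scaling (edgeR adjusted p = 0.0487). Of the 10132 genes with a mean of at least 10 CPM, fitted alone, 5287 passed. In pairs, 3756 of those genes differed between KMS-12 and KMS-11, 4334 between RPMI8226 and KMS-12, and 2204 between RPMI8226 and KMS-11. With the replicate block within each line HDAC6 passed (edgeR adjusted p = 0.0264), as it did without either KMS-11 DMSO library (edgeR adjusted p = 0.0495 and 0.0352), and HDAC3 passed without KMS-11 DMSO replicate 2 (edgeR adjusted p = 0.0232). Taken in pairs, 6 members differed between KMS-12 and KMS-11, 4 with a higher change in KMS-12 and 2 with a lower one (20.0% of all genes, 10.1% and 9.87% by direction). Between RPMI8226 and KMS-12 6 differed, 2 higher and 4 lower in RPMI8226 (23.4%, 12.3% and 11.1%). One of the 4 was HDAC6, at -0.45 (SE 0.16, edgeR adjusted p = 0.0427), whose call was lost without KMS-12 DMSO replicate 1 (-0.43), KMS-12 DMSO replicate 2 (-0.48), KMS-12 JQ1 replicate 1 (-0.33), RPMI8226 DMSO replicate 1 (-0.37) or RPMI8226 JQ1 replicate 2 (-0.37), with limma-voom (-0.44) and with a minimum mean of 10 CPM (-0.43), and which stood at 0.29 with library size alone. HDAC1 alone differed between RPMI8226 and KMS-11 (11.4%, 6.7% and 4.72%), by 0.68 (SE 0.14, edgeR adjusted p = 0.00324). KMS-12 thus stood apart from both other lines in HDAC4, by 0.92 (SE 0.14) against KMS-11 and by 1.21 against RPMI8226, in HDAC5, by 1.36 and 1.00, and in HDAC7, by 0.79 and 0.71. The fall of HDAC9 was larger there by 0.96 and 0.87. HDAC2, of class I, differed from both other lines as well. Its difference was -0.56 for KMS-12 minus KMS-11 (edgeR adjusted p = 0.00778) and 0.67 for RPMI8226 minus KMS-12 (edgeR adjusted p = 0.00207). In the test of any difference, HDAC7 lost its call with library size alone (edgeR adjusted p = 0.153) and with library size after MALAT1 was taken out (edgeR adjusted p = 0.0898, in a range from 7.89e-08 to 0.153). In that test HDAC1, HDAC2, HDAC4, HDAC5 and HDAC9 held under all 22 alternatives. Not all pairwise differences did. With library size alone, HDAC5 stood at -0.26 for RPMI8226 minus KMS-12 (edgeR adjusted p = 0.198). For KMS-12 minus KMS-11, HDAC1 then stood at 0.10 (edgeR adjusted p = 0.617) and HDAC7 at 0.28 (edgeR adjusted p = 0.166). That HDAC1 difference was 0.22 with library size after MALAT1 was taken out (edgeR adjusted p = 0.216). HDAC7 for RPMI8226 minus KMS-12 stood at 0.035 with library size alone (edgeR adjusted p = 0.938). After MALAT1 was taken out, the same HDAC7 difference was -0.23 (edgeR adjusted p = 0.233).

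Read as shares of the reads of the 10 genes, which scaling cannot move, the balance between the classes changed in each line. Class IIa held 61.2% and 62.9% of these reads in the KMS-11 DMSO libraries and 51.4% and 51.6% with JQ1. In RPMI8226 it went from 56.1% and 54.9% to 42.2% and 41.7%. KMS-12 went the other way, from 44.8% and 42.8% to 49.1% and 49.3%. Class I mirrored this, with means of 30.0% and 37.3% in KMS-11, 31.8% and 42.8% in RPMI8226, and 45.0% and 37.9% in KMS-12. Class IIb was higher with JQ1 in each line, at 12.7% and 15.3% in RPMI8226, 11.2% and 12.9% in KMS-12, and 7.96% and 11.2% in KMS-11, with no overlap between DMSO and JQ1 libraries in any of them. These 9 comparisons of 2 libraries with 2 carry no test.

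**Figure D3:**
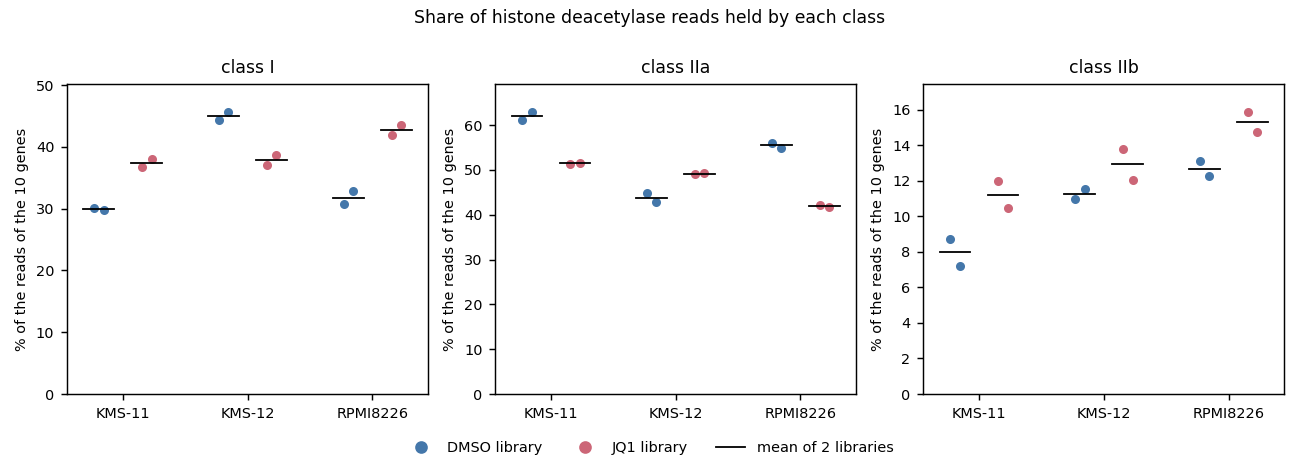
Share in percent of the reads of the 10 genes held by class I, class IIa and class IIb in each library, by line, with the mean of 2 libraries as a bar. In KMS-11 and RPMI8226 the class IIa share was lower with JQ1 (means of 62.0% and 51.5%, and of 55.5% and 41.9%), and in KMS-12 it was higher (43.8% and 49.2%).

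Ratios of single genes within a library need no scaling either. HDAC3 gave 0.376 and 0.379 reads per HDAC9 read in the KMS-11 DMSO libraries and 1.29 and 1.21 with JQ1. The ratio went from 0.388 and 0.386 to 1.19 and 1.03 in RPMI8226 and from 1.27 and 1.27 to 9.21 and 8.66 in KMS-12. Within class IIa, HDAC5 gained on HDAC7 in each line, from 0.456 and 0.511 to 0.699 and 0.649 reads per HDAC7 read in KMS-11, from 0.640 and 0.636 to 1.23 and 1.40 in KMS-12, and from 0.439 and 0.427 to 0.705 and 0.752 in RPMI8226. HDAC4 gained on HDAC7 without overlap in KMS-11 (0.365 and 0.277 to 0.539 and 0.450) and KMS-12 (0.225 and 0.253 to 0.388 and 0.425), and with overlap in RPMI8226 (0.318 and 0.407 to 0.397 and 0.476). Summed over the 10 genes, the level was 989 and 1124 CPM against 912 and 929.6 CPM in KMS-11, 669.9 and 647 against 884 and 861 CPM in KMS-12, and 771 and 719.7 against 725 and 687 CPM in RPMI8226.

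**Figure D4:**
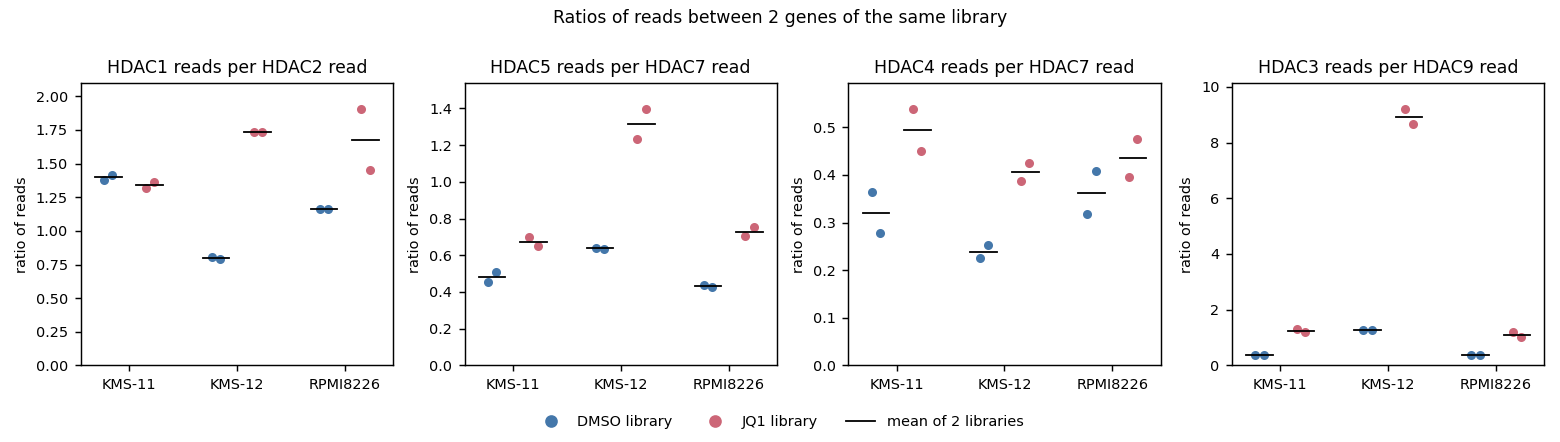
Reads of 1 gene per read of another in the same library, for 4 pairs of members, by line, with the mean of 2 libraries as a bar. HDAC1 per HDAC2 was higher with JQ1 in KMS-12 (1.73 in both libraries against 0.806 and 0.792) and RPMI8226 but not in KMS-11, and HDAC3 per HDAC9 was higher in all 3 lines.

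With DMSO alone the lines differed in most members. KMS-12 differed from KMS-11 in 9 of 10 genes (62.9% of all genes were called), with HDAC2 higher and 8 lower (30.2% and 32.7%). RPMI8226 differed from KMS-11 in 8, with 2 higher and 6 lower (58.2%, 30.0% and 28.2%), and from KMS-12 in 8, with 5 higher and 3 lower (62.5%, 33.2% and 29.3%). Of the 10132 genes with a mean of at least 10 CPM, fitted alone, these comparisons called 7557, 6996 and 7434, in the same order. HDAC9 varied most, with 114 ± 4.39 CPM in RPMI8226, 75.7 ± 7.38 in KMS-11 and 14.7 ± 0.461 in KMS-12 (SD, n = 2). RPMI8226 exceeded KMS-12 by 2.95 (SE 0.11, edgeR adjusted p = 1.54e-13) and KMS-11 by 0.59 (SE 0.10, edgeR adjusted p = 6.88e-05). HDAC4 had the order KMS-11, RPMI8226, KMS-12, with 102 ± 7.09, 60.1 ± 4.25 and 34.7 ± 0.613 CPM, and each step passed. HDAC3 was highest in RPMI8226, by 0.63 over KMS-11 and by 1.24 over KMS-12, and HDAC2 was highest in KMS-12, by 0.47 over KMS-11 and by 1.07 over RPMI8226. HDAC7 and HDAC5 were highest in KMS-11, HDAC7 by 1.14 over KMS-12 and 0.94 over RPMI8226, while HDAC7 did not differ past the test between KMS-12 and RPMI8226 (0.20, edgeR adjusted p = 0.140, and 0.0419 with the replicate block within each line). HDAC5 in KMS-11 exceeded KMS-12 by 0.75 and RPMI8226 by 1.11, HDAC1 in KMS-11 exceeded RPMI8226 by 0.86, and HDAC10 in RPMI8226 exceeded KMS-12 by 0.83. Some calls rest on 1 library. HDAC1 (KMS-12 minus KMS-11) was -0.34, and -0.23 with no call without KMS-11 DMSO replicate 2. HDAC10 in that comparison was -0.52, with no call without KMS-11 DMSO replicate 1 (-0.48) or KMS-12 DMSO replicate 2 (-0.43). HDAC8 (RPMI8226 minus KMS-11) was -0.25, with no call without RPMI8226 DMSO replicate 1 (-0.19) or KMS-11 DMSO replicate 2 (-0.18). For RPMI8226 minus KMS-12, HDAC5 at -0.36 lost its call without RPMI8226 DMSO replicate 2 (-0.23) or KMS-12 DMSO replicate 1 (-0.29), and HDAC6 at 0.29 without either KMS-12 DMSO library (0.27 and 0.32) or RPMI8226 DMSO replicate 1 (0.21).

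Read counts of different genes also depend on their lengths. Per kilobase of merged GENCODE 29 exons, HDAC7 and HDAC1 led in each DMSO group, at 32.4 ± 4.05 and 30.0 ± 3.07 CPM per kb in KMS-11, 16.8 ± 1.75 and 16.5 ± 0.415 in RPMI8226, and 14.7 ± 0.976 and 23.8 ± 0.00107 in KMS-12 (SD, n = 2). The pair did not differ beyond its spread in KMS-11 and RPMI8226. At the other end, HDAC9 with 0.874 ± 0.0274 and HDAC10 with 1.47 ± 0.132 CPM per kb were lowest in KMS-12, and HDAC10 was lowest in KMS-11 and RPMI8226. With JQ1, HDAC1 ranked first in all 3 lines, and HDAC3 moved from the sixth to the fourth place in KMS-11, from the sixth to the fifth in KMS-12 and from the third to the second in RPMI8226. Places depend on the length used. In KMS-11 with DMSO, HDAC8 took place 9 by its 22986 bases of merged exons and place 4 by its longest transcript of 5689 bases. HDAC4 there took place 4 by merged exons and place 7 by its longest transcript. By longest transcripts, HDAC3 moved from place 5 to 3 in KMS-11 and from place 7 to 5 in KMS-12, and HDAC1 ranked above HDAC7 in RPMI8226 with DMSO.

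The partners of these enzymes were looked at in 9 lists, of which the share called is to be read against 22.3% of all genes rising and 26.7% falling in the average of the lines. All values are of that average unless a line is named. Of the 14 SIN3 subunits, 7 rose and 3 fell (1 and 9 with library size alone), among them the SIN3 scaffold partner ARID4B (0.67, SE 0.06), SAP130 (0.41), SINHCAF (-0.93, SE 0.08) and SUDS3 (-0.44). Of the 13 NuRD subunits, 3 rose and 6 fell (1 and 10 with library size alone). The metastasis-associated subunit MTA3 fell by 1.92 (SE 0.11) and the remodelling ATPase CHD3 by 1.12 (SE 0.09), while its paralog CHD4 rose by 0.57 (SE 0.06) and GATAD2B by 0.40. The CoREST and MiDAC list had 4 of 13 rising and 6 falling (2 and 9 with library size alone), with TRERF1 at -1.46 (SE 0.10), PHF21A at -0.56, MIDEAS at -0.48 and HMG20B at 0.66. HDAC3 rose while 4 of its 6 NCoR partners fell, TBL1X by 0.85 (SE 0.09) and TBL1XR1 by 0.43 among them, and GPS2 rose by 1.20 (SE 0.17). Of the 6, 1 rose and 4 fell with library size alone.

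Around class IIa, MEF2D rose (0.54, SE 0.06), with 0.68 in KMS-11, a call in KMS-12 too, and -0.14 with no call in RPMI8226, and MEF2A fell (-0.18, SE 0.06, edgeR adjusted p = 0.0217), while MEF2B and MEF2C stood at 0.12 and -0.02 with no call. The MEF2A call was lost without KMS-12 JQ1 replicate 1, RPMI8226 DMSO replicate 1, KMS-11 DMSO replicate 2 or KMS-11 JQ1 replicate 2 (highest edgeR adjusted p = 0.0756). Of 18 measured kinases and 14-3-3 proteins that move class IIa enzymes out of the nucleus, 11 rose and 0 fell in the average. By line, KMS-11 had 12 rising and 0 falling, KMS-12 had 7 rising and 2 falling (CAMK4 by 0.58 and CAMK2D by 0.60), and RPMI8226 had 7 rising and 1 falling (SFN by 2.31), these 3 genes being named after their values were seen. The salt-inducible kinases SIK2 and SIK3 rose by 0.76 (SE 0.06) and 0.65 (SE 0.07), MARK3 by 0.66 and the 14-3-3 protein YWHAB by 0.49. With library size alone that count was 6 rising and 7 falling. Of the 13 aggresome partners of HDAC6, 10 rose and 1 fell: the ubiquitin-binding receptor SQSTM1 by 2.01 (SE 0.11), the segregase VCP by 1.02 (SE 0.06), the tubulin TUBA1A by 1.25 (SE 0.13) and BAG3 by 0.60. It was 5 rising and 3 falling with library size alone. In KMS-12, SQSTM1 rose by 3.47, VCP by 1.77 and BAG3 by 1.35, and TUBA1A stood at 0.43 with no call, against 1.56 in KMS-11 and 1.77 in RPMI8226.

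Among the other deacetylases, class IV HDAC11 and the NAD-dependent sirtuins, 5 of 8 rose and 1 fell (2 and 2 with library size alone), with SIRT7 at 1.09 (SE 0.07), SIRT1 at 0.70 (SE 0.08), SIRT2 at 0.47 and SIRT5 at -0.58 (SE 0.07). Of 12 histone acetyltransferases, the enzymes that write the marks, 7 rose and 3 fell (3 and 4 with library size alone), with NCOA3 at 0.53, KAT6A at 0.50, KAT2B at 0.49 and its paralog KAT2A at -1.33 (SE 0.11). NCOA3 and KAT2B were unlike between lines, at 1.11 and 1.27 in KMS-12 and, with no call, at -0.28 and -0.07 in RPMI8226. The lists' medians ran from -0.50 (NCoR) to 0.53 (other deacetylases), beside -0.10 for all genes, and those of the SIN3, kinase, aggresome and acetyltransferase lists and of MEF2 changed sign with library size alone. The named partners are those with the smallest p of each list, so that their calls follow from the choice. In the average, SIRT2, SAP130 and GATAD2B lost theirs with library size alone, at 0.12, 0.06 and 0.05.

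Over the 12 libraries, the genes whose log2 level ran most like that of HDAC9, out of 12448 protein-coding genes, were DOCK2 (Pearson r = 0.995), AP1S1 (0.990) and EIF2D (0.988). DOCK2 had 190.3 and 139 CPM in RPMI8226 without and with JQ1, 151 and 104 in KMS-11, and 45.4 and 20.6 in KMS-12, so that it had the same order of lines and a smaller range than HDAC9. Among the other members HDAC10 was the most like HDAC9, at 0.961, and HDAC8 followed at 0.695. For HDAC3 those most alike included AP1B1 (0.984) and SH3GLB2 (0.982), and AP1B1 went from 73.3 to 131 CPM in KMS-11, from 40.3 to 76.3 in KMS-12 and from 110.7 to 167 in RPMI8226. The 12 libraries are 6 pairs of replicates that share line and treatment, so these values describe the order of the groups and carry no test.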

How the data were processed

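The table deposited by the authors holds raw read counts, whole numbers per Ensembl gene ID and library, used as deposited. The submitters' processing notes name hg38, GRCh38.p13, MACS2 and DESeq2 and no role for them. Which aligner, counter, annotation release and strand setting were used is not given in the sources used here, so reads of overlapping or antisense genes are uncertain. Symbols came from a gene name table (60437 IDs matched), positions and exon lengths from GENCODE 29 (58420 matched). In R 4.3.3, edgeR 4.0.16 with filterByExpr (minimum count 10, minimum total 15), TMM scaling, a mean for each of 6 groups and robust quasi-likelihood F tests gave all comparisons, with Benjamini-Hochberg adjustment over 23493 genes. A zero count allows at most 0.107 to 0.178 CPM (3 counts, counting error only, since PCR copies cannot be told from molecules here). Replicates of a group differed by more than sampling noise (chi-square per degree of freedom 6.12 to 25.2). Alternatives were library size alone, RLE scaling, TMM without immunoglobulin, mitochondrial, histone and 7SK/7SL genes, other filters, DESeq2 1.42.0, limma-voom (limma 3.58.1), replicate blocks and leaving out each library. Deviations of same-numbered DMSO and JQ1 libraries of a line correlated at 0.158 (KMS-11), 0.102 (KMS-12) and 0.375 (RPMI8226) over 10132 genes, against -0.093 to 0.211 between lines. The KMS-11 and KMS-12 values lie within that range, and no label gives a pairing. Replicate numbers therefore entered as a block in the alternatives only. Results with the block within each line stand beside those it changes. Library size without MALAT1, and the shares and ratios, were added after seeing the data, and the motifs were chosen with the promoter sequences at hand. The code was tested on simulated counts. The members and the gene lists were chosen with earlier results of these data known. Named partners are up to 4 per list with the smallest adjusted p in the average. Genes of like pattern are the 3 protein-coding genes (mean of at least 1 CPM) with the highest Pearson r to each of the 2 most changed members. Of the genes these rules name, 2 are not reported here.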

Additional observations from a re-analysis of the deposited data

Results flagged for a closer look

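The JQ1 response differed between the 3 lines for 6 members by edgeR's F test on the difference itself, with Benjamini-Hochberg adjustment over all genes. HDAC4 (edgeR adjusted p = 9.96e-06) had a log2 change of -0.05 in KMS-11, 0.87 for KMS-12 and -0.34 for RPMI8226. HDAC5 (edgeR adjusted p = 3.11e-05) changed by -0.22, 1.14 and 0.14 in the same order. The changes of HDAC9 (edgeR adjusted p = 0.000455) were -0.87, -1.83 and -0.96, those of HDAC1 (edgeR adjusted p = 0.00155) were 0.07, 0.69 and 0.75, those of HDAC7 (edgeR adjusted p = 0.00158) were -0.69, 0.10 and -0.60, and those of HDAC2 (edgeR adjusted p = 0.00265) were 0.13, -0.43 and 0.23. The share of MALAT1 reads also rose by unlike amounts in the lines. Its part in these differences was not tested beyond the scaling alternatives, under which HDAC7 lost its call and the other 5 did not. Among the remaining members, HDAC8 and HDAC10 gained a call with library size, both alone and after MALAT1 was taken out. HDAC6 gained one with RLE scaling.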

How the results depend on the processing

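Scaling mattered most. With library size alone, the number of members rising was 2 in the average and 1 each in KMS-11 and KMS-12, the number falling in KMS-11 was 5, and 5 members were lower in KMS-12 than in KMS-11 with DMSO. With library size after MALAT1 was taken out, these were 1 rising and 4 falling in KMS-11, and 5 lower in KMS-12 with DMSO. A minimum mean of 10 CPM left 3 members higher in RPMI8226 than in KMS-12 with DMSO, and HDAC10 was not measured there. Values that changed sign with library size alone were HDAC4 (-0.19) in the average, HDAC1 (-0.19) and HDAC2 (-0.13) in KMS-11, HDAC1 (-0.085), HDAC6 (-0.076) and HDAC7 (-0.67) in KMS-12, the HDAC7 difference of responses RPMI8226 minus KMS-12 (0.035) and that of HDAC6 (0.29), HDAC6 in KMS-12 minus KMS-11 with DMSO (0.076) and HDAC8 in RPMI8226 minus KMS-12 with DMSO (-0.034). After MALAT1 was taken out the average of HDAC4 was -0.021, HDAC7 in KMS-12 -0.37, HDAC6 in KMS-12 minus KMS-11 with DMSO 0.15, HDAC7 and HDAC8 in RPMI8226 minus KMS-12 with DMSO -0.025 and -0.10, and the HDAC6 difference of responses RPMI8226 minus KMS-12 0.018. Beyond the change of scaling itself, the cause was not tested. Leaving out 1 library gave 1 to 2 members rising in KMS-11 and 2 to 4 falling in KMS-12, and moved values near 0 across it: the average of HDAC2 (-0.061 to 0.015), HDAC1 (-0.032 to 0.19), HDAC4 (-0.12 to 0.019) and HDAC5 (-0.42 to 0.022) in KMS-11, and HDAC10 in RPMI8226 (-0.31 to 0.018). With a library left out, its partner's spread was taken from the remaining groups. With the replicate block within each line, 9 members were called in the average, 9 in KMS-12, 4 in KMS-11, 6 in RPMI8226 (HDAC8 was added), 7 for a difference of responses (HDAC6 was added) and 9 between RPMI8226 and KMS-12 with DMSO (HDAC7 was added). It changed no other call of a member in these comparisons. Over the alternatives run for each member in the average, the lines, the DMSO comparisons and the test of any difference, and for the 13 called pairwise differences of responses, 1911 values kept direction and call, 73 lost the call, 31 gained one and 23 changed sign. Depth limits HDAC10 and HDAC9 in KMS-12, with 91 and 78 reads in their lowest libraries.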
